A study of Caenorhabditis elegans with 5 samples.

Results

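Autosomal bidirectional promoter peaks are ATTF-4 ChIP-seq peaks whose summit lies in the promoter windows of at least 2 protein-coding genes on opposite strands. The window of a gene covers 1000 bp before its annotated 5′ end and the first 200 bp after it. By this rule 743 peaks were chosen from position alone, out of 20062 autosomal peaks and 24897 peaks in all in the list pooled over replicates. A further 4628 autosomal peaks lay in promoter windows of 1 strand only (one-sided promoter peaks), and 14691 lay outside promoter windows. The X chromosome held 44 bidirectional promoter peaks, which are not described here.

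ATTF-4 (C05D10.1) was mapped in strain OP219, genotype unc-119(ed3) III with the transgene wgIs219, which stably expresses the protein with a C-terminal GFP-FLAG tag. Animals were L4 larvae, the last larval stage, of pooled sexes, and chromatin was sheared by sonication. All 5 libraries belong to 1 group, in which replicate 1 has 1 library and replicates 2 and 3 have 2 each, for 3 biological replicates. The labels name attf-4 as the antibody target, state no age and describe no second condition, and all animals carry the tagged copy. Whole animals were used, so a peak may come from any tissue, and a tagged transgene need not match the level of the untouched gene. The question is where the tagged protein sits relative to each of the 5′ ends at a shared promoter, and how strong the signal is there.

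The C. elegans genome is compact, and neighbouring genes are often read outward from a shared intergenic stretch. Such head-to-head pairs can share open chromatin and regulatory sequence, and genes for basic cell functions are common among them. Many worm transcripts receive a spliced leader, so an annotated 5′ end is often a splice site some distance inside the true start of transcription. AT-hook proteins carry a short motif that contacts the minor groove of DNA, typically in stretches rich in A and T.

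The 11 strongest of these peaks belong to the final set, the peaks that the authors kept by the irreproducible discovery rate (IDR), a measure of how consistently replicates rank a peak. The sequences of 8 of them follow, because the strongest ones share letters. Each is the plus strand of ce11 (WBcel235) from the RefSeq genome, 50 bp to either side of the summit, for final-set members on chromosomes II to V without a protein-coding exon in the window, in order of signal. Capitals mark 6 overlapping words of 8 bases that occur, on either strand, in at least 3 of the 11 final-set windows. The words were found in these windows themselves, out of 985 words counted, so their count there is a description. Names give the gene on the minus strand and then the gene on the plus strand.

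rpl-20/Y17G9B.5 (chrIV:4749999-4750099): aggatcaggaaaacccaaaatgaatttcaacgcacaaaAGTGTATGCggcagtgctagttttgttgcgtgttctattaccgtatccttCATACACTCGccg
K01G5.10/tasp-1 (chrIII:10759190-10759290): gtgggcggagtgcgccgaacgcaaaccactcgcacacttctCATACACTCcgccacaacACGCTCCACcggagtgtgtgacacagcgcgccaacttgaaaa
rpl-15/K11H12.8 (chrIV:654900-655000): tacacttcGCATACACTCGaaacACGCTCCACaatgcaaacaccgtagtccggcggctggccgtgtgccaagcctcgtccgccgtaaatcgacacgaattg
ifet-1/rps-1 (chrIII:4475638-4475738): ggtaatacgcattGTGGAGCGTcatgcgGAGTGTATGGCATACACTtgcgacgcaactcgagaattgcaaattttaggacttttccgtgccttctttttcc
rocf-1/pqn-71 (chrV:15465024-15465124): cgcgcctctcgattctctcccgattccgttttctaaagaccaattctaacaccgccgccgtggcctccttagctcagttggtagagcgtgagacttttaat
cup-14/ndub-8 (chrII:13872627-13872727): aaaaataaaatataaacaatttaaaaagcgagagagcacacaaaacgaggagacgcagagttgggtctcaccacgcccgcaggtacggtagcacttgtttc
ska-3/rps-12 (chrIII:5679051-5679151): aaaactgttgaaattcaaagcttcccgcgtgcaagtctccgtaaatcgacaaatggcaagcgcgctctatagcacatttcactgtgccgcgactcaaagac
larp-1/wip-1 (chrIII:5018276-5018376): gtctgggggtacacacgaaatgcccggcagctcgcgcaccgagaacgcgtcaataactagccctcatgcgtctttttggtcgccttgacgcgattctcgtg

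The first 4 sequences, which are also the 4 strongest members, all hold CATACACTC or its reverse complement GAGTGTATG. No other member did, 0 of the 732 members outside the final set, which allows a share of up to 0.410%, taking 3 counts as the limit that a count of 0 allows. Of the 86 other autosomal final-set peaks 0 held it, which allows up to 3.49%, and of 50 final-set peaks on the X chromosome 0 held it. Among all 20062 autosomal peaks 19 windows held it, or 0.0947%, and the 15 of these outside the final set had a median signal of 9.79. A second word, ACGCTCCAC or its reverse complement GTGGAGCGT, occurred in tasp-1, rpl-15 and rps-1 windows. Outside the final set 1 member held it, at Y71H2AM.20 and nduc-2 with a signal of 17.3 (named after its value was seen), as did 1 of the 86 other autosomal final-set peaks, and 12 of all autosomal windows did, or 0.0598%. The middles of 2479 stretches covered by windows of both strands held these 9-base words 0 and 2 times. The shorter 8-base words were less exclusive: at least 1 of the 6 was in 5 of the 11 final-set members, 13 of the 732 other members (1.78%), 3 of the 86 other autosomal final-set peaks (3.49%) and 3 of the 50 on the X chromosome. It was in 0.972% of all autosomal windows and 1.33% of the stretch middles. The last 4 sequences carry no capitals, and the ifet-1/rps-1 and rocf-1/pqn-71 windows lie within 200 bp of annotated non-coding RNA genes, the latter including 2 tRNA genes.

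Bidirectional promoter peaks were more often in the final set than other autosomal peaks. The final set held 11 of the 743 members, or 1.48% (95% Clopper-Pearson interval 0.741 to 2.63%), where 0.484% of all autosomal peaks were in it. For one-sided promoter peaks the share was 33 of 4628, or 0.713% (0.491 to 1.00%), and for peaks outside promoters 53 of 14691, or 0.361% (0.270 to 0.472%). The intervals of members and one-sided peaks overlap, those of members and peaks outside promoters do not, and all cover counting error only. Membership of the final set follows pooled signal: its lowest signal was 29.43, the strongest pooled peak outside it had 29.33, and so the shares above are shares over that signal.

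The strongest member was at rpl-20, which encodes a protein of the large ribosomal subunit, and Y17G9B.5 (chromosome IV, 4749889 to 4750208). Its pooled signal was 67.6, replicates 1 to 3 gave 18.98, 16.996 and 31.9, and it was within the 1000 strongest peaks of each. The summit lay 271 bp upstream of rpl-20 and 191 bp upstream of Y17G9B.5. The peak at tasp-1, the worm counterpart of the protease taspase, and K01G5.10 (chromosome III, 10759080 to 10759399) had a pooled signal of 64.2 and replicate signals of 16.6, 9.49 and 36.7. Its summit was far closer to 1 gene of the pair, 67 bp upstream of tasp-1 and 718 bp upstream of K01G5.10. The peak between rpl-15, another gene of the large ribosomal subunit, and K11H12.8 (chromosome IV, 654790 to 655109) had a pooled signal of 53.2 and replicate signals of 16.02, 11.9 and 23.98. Here the summit lay near the middle, 374 bp upstream of rpl-15 and 440 bp upstream of K11H12.8. These 3 were the only members found among the 1000 strongest peaks of all 3 replicates.

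Next came rps-1, a gene of the small ribosomal subunit, paired with ifet-1, whose product binds the translation factor eIF4E and represses translation (chromosome III, 4475528 to 4475847). The pooled signal was 49.6, the replicate signals were 12.2, 6.26 and 31.4, and the summit lay 230 bp upstream of rps-1 and 538 bp upstream of ifet-1. The peak at ceh-38, a homeobox gene of the ONECUT class, and malt-1, the worm paracaspase gene (chromosome II, 6951380 to 6951699), had a pooled signal of 40.5. Its replicate signals were 3.55, 9.26 and 28.5, and its summit lay 14 bp inside ceh-38 and 240 bp upstream of malt-1. Signals are not on a common scale across the lists, so an order of members is read within 1 list only.

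Of the final-set members 2 were at genes of the respiratory chain and ATP synthase list, which also had 2 final-set peaks at one-sided promoters. At atp-3, a subunit of mitochondrial ATP synthase, and F27C1.2 (chromosome I, 5429782 to 5430101) the signal was 32.2, and the summit lay 34 bp upstream of atp-3 and 215 bp upstream of F27C1.2. At ndub-8, a subunit of respiratory complex I, and cup-14, known from endocytosis by coelomocytes (chromosome II, 13872517 to 13872836), the signal was 29.95 and the distances were 192 and 436 bp, upstream of both. The atp-3 peak was found in replicates 2 and 3 with signals of 7.89 and 17.9, whereas the ndub-8 peak was found in replicates 1 and 2 with 11.6 and 3.14. Neither had a summit within 100 bp in the remaining list.

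The other 4 final-set members were at genes of varied function. The peak at ndk-1, a nucleoside diphosphate kinase gene, and F25H2.6 (chromosome I, 10553752 to 10554071) had a signal of 31.4, with the summit 1 bp inside ndk-1 and 454 bp upstream of F25H2.6. It was found in replicates 2 and 3, as was the peak with a signal of 32.6 at pqn-71, a gene for a protein with a glutamine and asparagine rich domain, and rocf-1 (chromosome V, 15464914 to 15465233). Of the final set the latter had the largest distance to its nearer protein-coding 5′ end. Its summit lay 603 bp upstream of pqn-71 and 572 bp upstream of rocf-1, with tRNA genes within 200 bp. Replicate 1 was not without signal at these pairs. It had a summit within 100 bp of a second, weaker pooled peak of each, with signals of 14.8 at ndk-1 (rank 106) and 16.1 at rocf-1 (rank 75). The peak at rps-12, of the small ribosomal subunit, and ska-3, a kinetochore gene (chromosome III, 5678941 to 5679260), had a signal of 29.7 and lay 197 and 96 bp upstream. The last member inside the limit was at larp-1, which encodes an RNA-binding protein of the La-related family, and wip-1, the counterpart of the WASP-interacting protein (chromosome III, 5018166 to 5018485). Its signal was 29.6, its distances were 676 and 313 bp upstream, and both it and the rps-12 peak were found in all 3 replicates, with signals of 5.75, 5.53 and 14.2 at larp-1 and 6.37, 5.56 and 14.9 at rps-12.

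**Figure D1:**
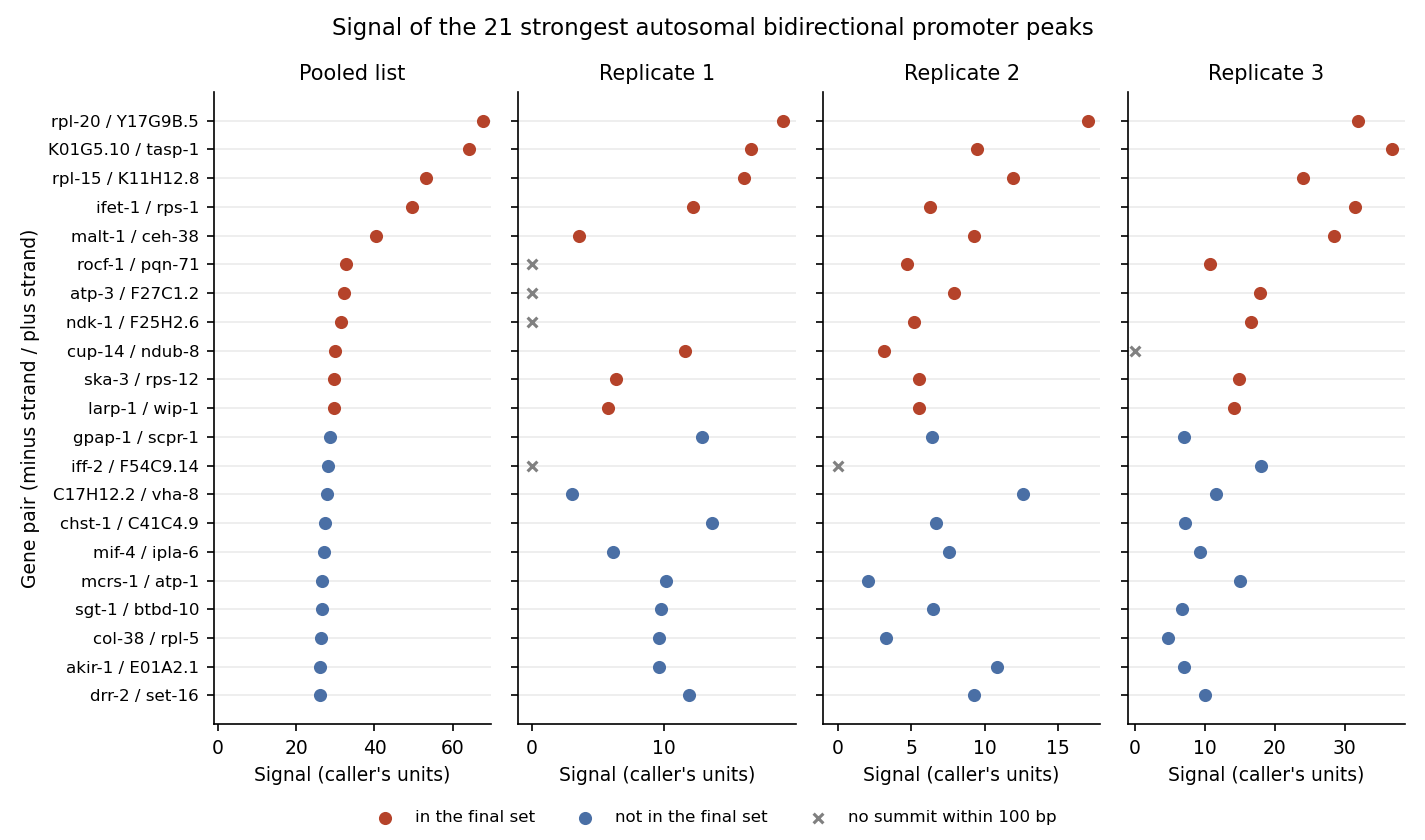
Signal of the 21 strongest members (the 11 in the final set and the next 10) in the pooled list and in the list of each replicate, in the peak caller's units. Each point is 1 peak, the axes differ between lists, and a cross at 0 means that no summit lay within 100 bp; the 4 strongest members have the highest pooled signals, 49.6 to 67.6, and were found in all 3 replicates.

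The members just outside the final set were also found in most replicates. Of the next 10 by signal, 9 had a summit within 100 bp in each replicate, against 7 of the 11 final-set members. These counts include weak entries, since the replicate lists also hold background. The vha-8 match in replicate 1, for example, ranked 21881 with a −log10 q-value of 0.266. Among the 1000 strongest peaks of all 3 replicates were 3 final-set members and no other member, so the counts do not show better replication outside the final set. The strongest was at gpap-1 and scpr-1, with a pooled signal of 28.8 and replicate signals of 12.9, 6.39 and 6.99. The exception was the peak 73 bp upstream of iff-2, the translation factor eIF-5A, and 862 bp upstream of F54C9.14. It had a pooled signal of 28.02 and was found in replicate 3 alone, at 18.02. Further members of this group were at vha-8, a subunit of the vacuolar proton pump, and C17H12.2 (pooled signal 27.8), at chst-1, a carbohydrate sulfotransferase gene, and C41C4.9 (27.5), and at mif-4 and ipla-6 (27.1). The vha-8 summit lay 424 bp upstream of vha-8 and 162 bp upstream of C17H12.2, and its replicate signals were 3.07, 12.6 and 11.6.

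The remaining 5 of these were at atp-1, the alpha subunit of mitochondrial ATP synthase, and mcrs-1 (signal 26.7, summit 8 bp inside atp-1), at sgt-1 and btbd-10 (26.7), and at rpl-5 and the cuticle collagen gene col-38 (26.3). They also included akir-1, the akirin gene, and E01A2.1 (26.04), and set-16, a histone methyltransferase gene, and drr-2 (26.04). The set-16 and drr-2 summit lay almost midway, 174 and 172 bp upstream, and its replicate signals were 11.9, 9.29 and 10.03.

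Over all members signal was a little higher than at one-sided promoters. The median pooled signal was 10.2 for members (quartiles 8.32 and 13.4, range 6.98 to 67.6), 9.54 for one-sided promoter peaks (8.04 and 11.95) and 9.20 outside promoters (7.92 and 11.3). The 95% intervals of the medians, 9.89 to 10.5 and 9.44 to 9.67, did not overlap, but peaks are not replicates. With each replicate list classified by itself, the medians for bidirectional and one-sided peaks were 4.21 and 3.93 in replicate 1, 3.28 and 3.12 in replicate 2, and 5.70 and 5.28 in replicate 3. Bidirectional peaks were thus higher in 3 of 3 replicates, with log2 ratios of 0.10, 0.07 and 0.11. The mean log2 ratio was 0.09 ± 0.02 (SD, n = 3), and an exact sign-flip permutation test, two-sided, gave p = 0.25, the smallest that 3 replicates allow.

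Most members carried little statistical support of their own. The median −log10 q-value was 0.206 for members, 0.158 for one-sided promoter peaks and 0.131 outside promoters. At a −log10 q-value of at least 1.3 there were 83 members (11.2%), 284 one-sided promoter peaks (6.14%) and 534 peaks outside promoters (3.63%), against 4.49% of all autosomal peaks. The pooled and replicate lists hold background entries beside peaks by design, so most of the 743 members are entries with weak evidence of binding.

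The bidirectional share rose with signal rank. Among the 100 strongest autosomal promoter peaks 27.0% were bidirectional (18.6 to 36.8%), among ranks 101 to 300 22% and among ranks 301 to 1000 16.9%. In the lowest bin, ranks 4001 to 5371, the share was 11.7% (10.02 to 13.5%), close to the 10.7% of promoter bases that lie in windows of both strands. Each replicate gave the same order: 13.2, 13.4 and 13.3% of its promoter peaks were bidirectional, and 17.1, 20.9 and 19.9% of those among its 1000 strongest peaks.

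**Figure D2:**
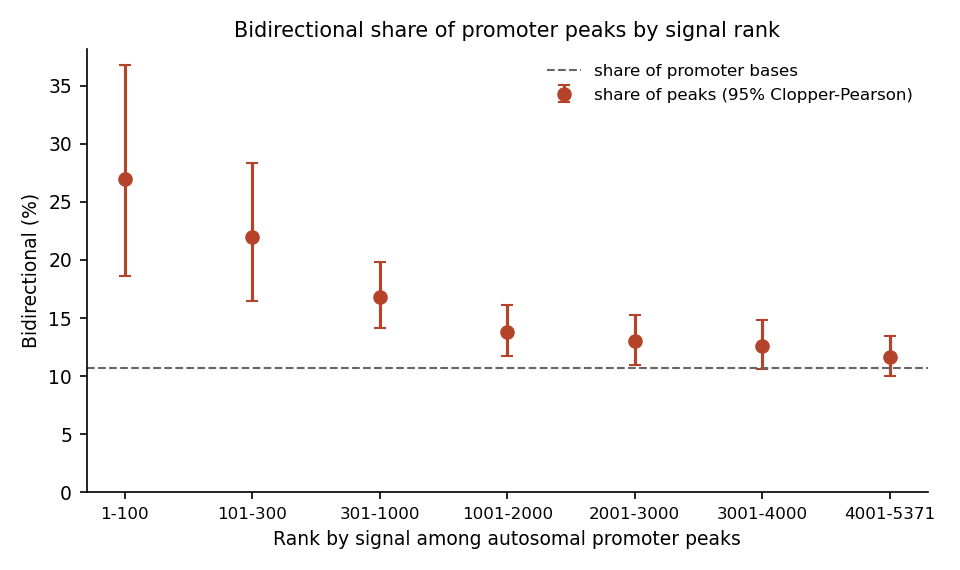
Share of autosomal promoter peaks that are bidirectional (vertical axis, percent) by rank of pooled signal (horizontal axis). Points are shares with 95% Clopper-Pearson intervals, and the dashed line is the 10.7% share of promoter bases in windows of both strands; the share goes from 27.0% at the top to 11.7% at the bottom.

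The same excess appeared against the amount of sequence. Windows of both strands covered 1.98 Mb of the autosomes and windows of 1 strand 16.4 Mb. Members numbered 376 per Mb and one-sided promoter peaks 282 per Mb, and the bidirectional share of promoter peaks was 1.29 times its share of promoter bases. In the replicate lists this ratio was 1.23, 1.24 and 1.24. In the final set it was 2.33, on 11 of 44 promoter peaks. The autosomes held 2586 separate stretches covered by both strands, with a median width of 797 bp, of which 686 (26.5%) held a member and 11 a final-set member.

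Support by replicates depended on the distance allowed between summits. A summit of the replicate list lay within 100 bp for 268 members in replicate 1, 194 in replicate 2 and 384 in replicate 3. All 3 lists had one for 43 members, or 5.79% (4.22 to 7.72%), against 3.24% of one-sided promoter peaks (2.75 to 3.79%) and 2.03% outside promoters. The share of members was 2.69% within 50 bp, 12.1% within 200 bp and 20.5% when any shared base sufficed. For 166 members no replicate list had one within 100 bp. The pooled list was made from the alignments behind the replicate lists, so this support is not independent of the pooled signal.

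Most summits lay between the 5′ ends, as did most of the sequence in windows of both strands. In 549 members (73.9%, 70.6 to 77.0%) the genes pointed away from each other with the summit in the stretch between them, which held 67.9% of the bases in windows of both strands. Members numbered 409 per Mb between the 5′ ends and 306 per Mb in the rest of these windows. In 186 members (25.03%) the summit lay inside 1 of the divergent genes, within 200 bp of its 5′ end, and in 8 (1.08%) the 5′ parts of the genes overlapped. The nearer 5′ end was a median 151 bp away (quartiles 75 and 264.5) and the farther one 500 bp (296 and 751.5), with a median of 627 bp between the 5′ ends. The nearest 5′ end of one-sided promoter peaks was 329 bp away, but the nearer and farther ends are sorted within each member and a member has more 5′ ends to be near to, so these medians differ by construction.

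**Figure D3:**
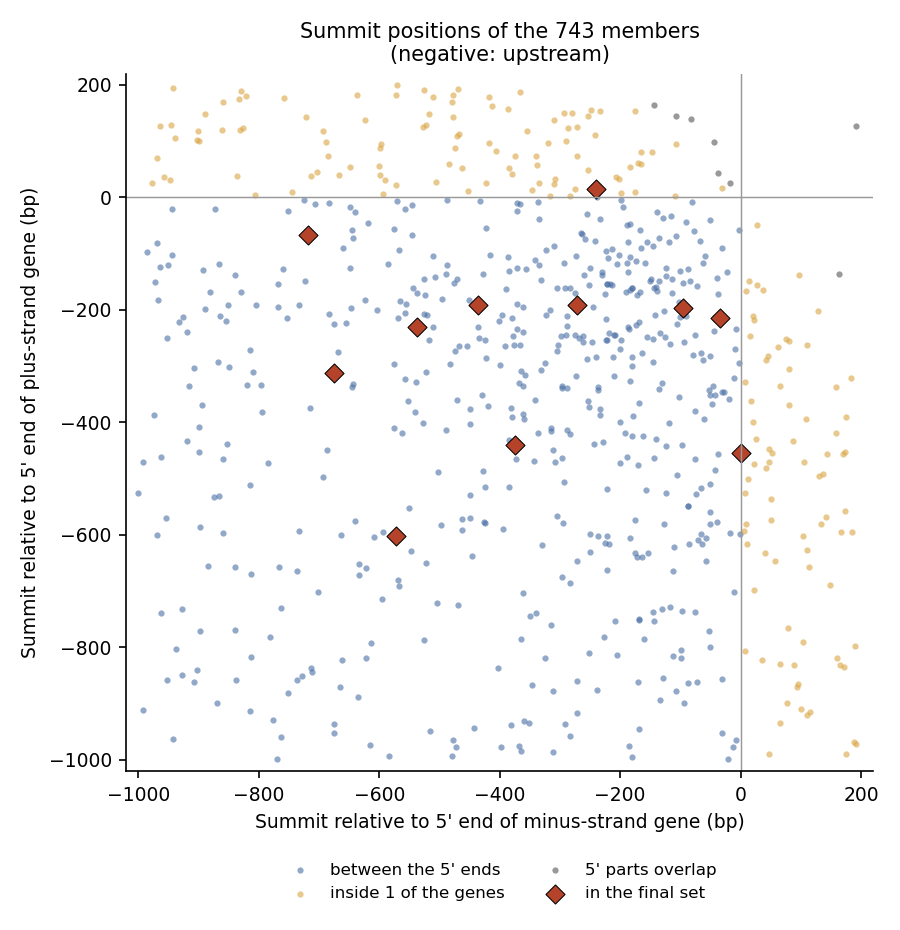
Position of each of the 743 summits relative to the 5′ end of the minus-strand gene (horizontal axis, bp) and of the plus-strand gene (vertical axis, bp), with negative values upstream. Points are coloured by arrangement, and diamonds mark the 11 final-set members, 9 of which lie upstream of both genes.

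Signal differed by arrangement. The median was 10.4 with the summit between the 5′ ends and 9.23 with the summit inside a gene, and it was 11.0 in the 8 members whose genes overlap. A −log10 q-value of at least 1.3 was reached by 13.1% of the first group and 5.91% of the second. Of the 83 members at that level 86.7% lay between the 5′ ends, as did 9 of the 11 in the final set. The final-set members had a median of 191 bp to the nearer and 440 bp to the farther 5′ end.

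Per base, peaks were densest at 100 to 200 bp from the nearer 5′ end. Between divergent 5′ ends there were 405 members per Mb within the first 100 bp (134 members). There were 558 at 100 to 200 bp (153 members) and 481 at 200 to 300 bp (104 members). Whether neighbouring bins differ by more than counting error was not tested. The density was 373 at 300 to 400 bp and 265 at 400 to 500 bp. Upstream of one-sided promoters the same bins held 338, 331, 341, 304 and 253 peaks per Mb, so the 2 kinds of promoter differed most between 100 and 300 bp. At 500 to 600 bp they were close, with 232 and 229, and from 700 bp on 26 members gave 309 per Mb against 241. Along the stretch between the 5′ ends, 47.0% of summits lay in the middle part from 1/3 to 2/3 of the way, which held 45.1% of the bases.

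**Figure D4:**
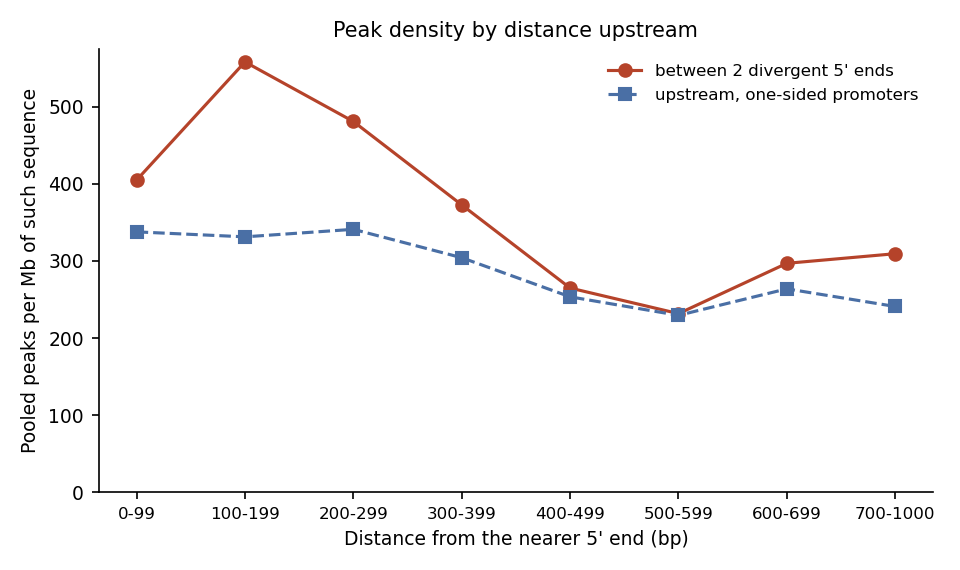
Pooled peaks per Mb of sequence (vertical axis) by distance upstream from the nearer 5′ end (horizontal axis, bp), for sequence between divergent 5′ ends and for sequence upstream of one-sided promoters. Members peak at 558 per Mb at 100 to 200 bp, where one-sided promoters hold 331 per Mb.

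Where the summit lay between the 5′ ends, shorter gaps went with a somewhat higher median signal. Among these 549 members the median signal was 11.4 where the 5′ ends were up to 300 bp apart (57 members), 11.1 at 301 to 600 bp, 10.3 at 601 to 1000 bp and 9.89 at 1001 to 2000 bp. In the same order 15.8, 17.9, 11.5 and 9.52% reached a −log10 q-value of at least 1.3. The final set held 3.51, 0.690, 2.50 and 0.680% of them, so these shares did not fall at each step. Across the same members Spearman's rho of signal with the gap was -0.12. Signal and distance to the nearer 5′ end gave 0.02 across all 743 members. These points share libraries and neighbouring sequence, and the values describe the list only.

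Of the 15 gene lists counted, ribosomal protein genes had the largest share of genes at members and the most final-set members. The ribosome is built from RNA and many proteins whose genes are among the most active in a growing larva. Of 80 autosomal ribosomal protein genes 53 have bases in windows of both strands, and 39 of these (73.6%) were at a member. Of all 5285 autosomal genes with such bases 26.2% were. The 39 members at these genes had a median signal of 14.5 (quartiles 10.9 and 21.0, range 7.30 to 67.6), against 10.2 over all members. A −log10 q-value of at least 1.3 was reached by 12 of them (30.8%, against 11.2% of all members). In the final set were 4 of the 39, against 11 of all 743 members (1.48%). In all 3 replicates 8 of the 39 were found, against 43 of all 743 (5.79%). At one-sided promoters of these genes 32 peaks had a median signal of 11.9, and 2 were in the final set, against 0.713% of all one-sided promoter peaks.

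In the 36 members with 1 ribosomal protein gene, the other gene of the pair was more often the nearer one, and the ribosomal protein gene was nearer in 11 of 36. The median position was -350.5 bp from the ribosomal protein gene (quartiles -452 and -228.75) and -206.5 bp from its partner. Over all 39 members at these genes the summit lay upstream of both genes in 33 of 39 members. In 3 members both genes were ribosomal. These were rps-30 with rpl-39, at a signal of 13.1, and rpl-36 with rps-14, where 2 peaks had signals of 15.6 and 10.6 (named after their values were seen). After the 4 in the final set, the strongest was at rpl-5, 466 bp upstream of it and 373 bp upstream of col-38, with replicate signals of 9.60, 3.28 and 4.72.

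**Figure D5:**
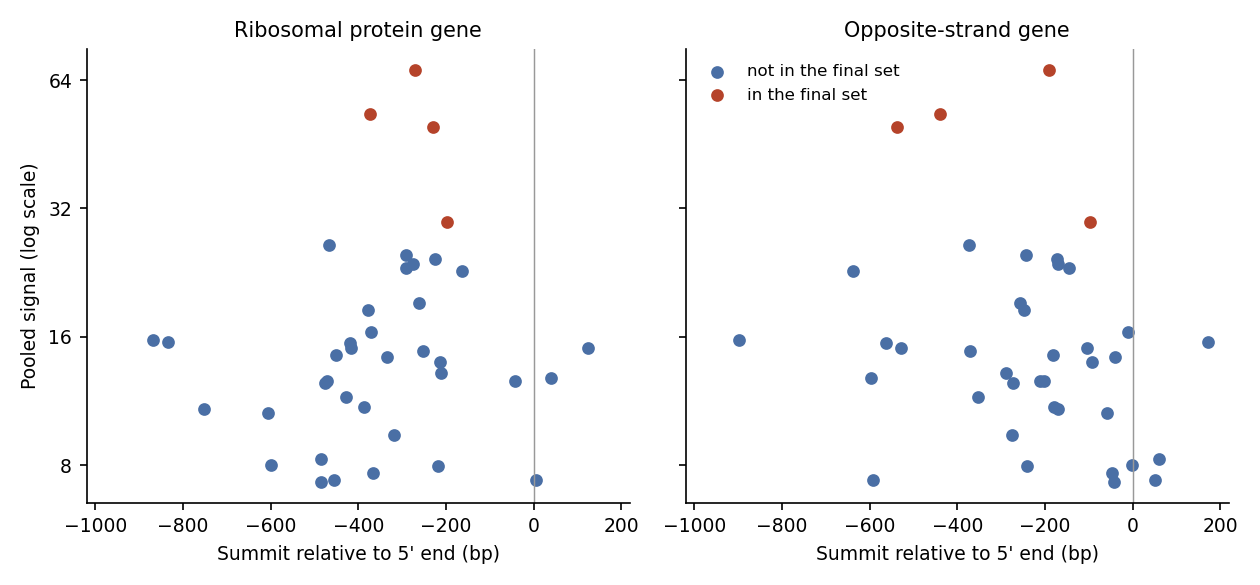
Pooled signal (vertical axis, log scale) of the 39 members at ribosomal protein genes against the summit's position relative to the ribosomal protein gene (left, bp) and to the gene on the opposite strand (right, bp), with negative values upstream. The 4 final-set members lie 197 to 374 bp upstream of the ribosomal protein gene.

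Proteasome genes were nearly as frequent at members, with lower signal. Of 33 proteasome genes, whose products degrade proteins, 24 have bases in both-strand windows and 16 of these (66.7%) were at a member. Their 17 members had a median signal of 10.6 and a maximum of 13.3, and 0 reached a −log10 q-value of 1.3. Of 61 respiratory chain and ATP synthase genes 39 have such bases and 18 (46.2%) were at a member, with a median signal of 11.6 and 2 in the final set. Mitochondrial ribosomal protein genes had 12 of 30 (40.0%, median signal 9.57), splicing genes 11 of 29 (37.9%, 9.84), translation factors 9 of 19 (47.4%, 9.04) and genes of RNA polymerase and the general transcription machinery 8 of 20 (40.0%, 11.6).

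Smaller lists gave few members. Aminoacyl-tRNA synthetase genes had 5 of 15 (33.3%, median signal 11.7), kinetochore and cell cycle genes 7 of 19 (36.8%, 12.6), vacuolar ATPase genes 3 of 8 (37.5%, 14.5), homeobox genes 3 of 8 (37.5%, 11.2) and autophagy genes 1 of 4 (25%, 12.9). The homeobox, cell cycle and translation factor lists each had 1 final-set member, at ceh-38, ska-3 and ifet-1. The ska-3 and ifet-1 peaks are the same peaks as those counted at rps-12 and rps-1 in the ribosomal protein list.

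F-box, chemoreceptor, nuclear hormone receptor and histone genes were seldom at members. F-box and chemoreceptor genes had 50 of 368 (13.6%, median signal 9.58) and nuclear hormone receptor genes 6 of 45 (13.3%, 8.39), both below the 26.2% of all such genes. Most histone genes, 64 of 68, have bases in both-strand windows, and 7 of the 64 (10.9%) were at a member. Histone genes exist in near-identical copies, so reads there may not have been placed uniquely, and this value is uncertain.

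Sequence at the summits was richer in G and C where signal was higher. Within 100 bp of the summit GC content was 37.3% ± 6.73 (SD over 743 members), 36.9% ± 6.84 over one-sided promoter peaks and 34.5% ± 6.67 at the middles of the 2586 both-strand stretches. Peaks outside promoters had 37.8% ± 7.24 and all autosomal peaks 37.5% ± 7.14, slightly more than members. GC content was 45.0% ± 5.54 in the 11 final-set members, 43.7% ± 5.75 in the 83 with a −log10 q-value of at least 1.3 and 43.2% ± 7.37 in the 33 one-sided final-set peaks. In the final-set members it was 49.4% within 50 bp and 37.0% within 250 bp, so the high GC was close to the summit. One-sided final-set peaks also had less with width, 45.3% within 50 bp and 39.3% within 250 bp. Spearman's rho of GC with signal was 0.25 across members and 0.12 across one-sided promoter peaks. Whether base composition affected recovery or sequencing was not tested.

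Short motifs were searched within 50 bp of each summit on both strands. They were chosen with earlier results of these data known, in which AAAAAT and CCTGCG had been named, so their shares are descriptions only. AAAAAT was in 47.4% of members (43.7 to 51.0%), 42.2% of one-sided promoter peaks, 40.8% of all autosomal peaks and 54.2% of the middles of both-strand stretches, and in 2 of the 11 final-set members. CCTGCG was in 2.56% of members (1.55 to 3.96%), 1.34% of one-sided promoter peaks, 1.33% of all autosomal peaks and 1.37% of stretch middles. GAGAGA was in 10.4% against 6.37% of stretch middles and 9.33% of one-sided promoter peaks. The box TATAAA, in 11.4% of members and 13.2% of stretch middles, the trans-splice acceptor letters TTTCAG, in 19.4% and 18.7%, the E-box CACGTG, in 2.15% and 1.86%, and a run of 8 T, in 8.34% and 11.5%, were at or below the stretch middles or within the counting error of them. TTTCAG was in 0 of the 11 final-set members, which is a small number of windows.

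The members were spread over all autosomes. They made up 15.4% of promoter peaks on chromosome I, 13.9% on II, 15.7% on III, 12.7% on IV and 11.99% on V, and the final-set members numbered 2, 2, 4, 2 and 1. The central part of a chromosome (the middle one of 3 equal parts), where C. elegans genes lie densest and recombination is rare, held 44.1% of members, 44.4% of one-sided promoter peaks and 40.0% of peaks outside promoters. Non-coding RNA genes of the unclassified kind lay within 200 bp of 71 members (9.56%, 7.54 to 11.9%), against 5.70% of one-sided promoter peaks and 5.65% of all autosomal peaks. For tRNA genes the shares were close, 0.808% of members and 0.927% of all.

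Several pairs held more than 1 peak. The 743 members belonged to 699 gene pairs, of which 655 had 1 peak and 44 had 2, and 41 members had windows of at least 3 genes over the summit. Of the final-set pairs 4 held a second peak: rocf-1/pqn-71 with a signal of 15.3, ndk-1/F25H2.6 with 20.1, cup-14/ndub-8 with 8.15 and larp-1/wip-1 with 18.1. At rocf-1/pqn-71 and ndk-1/F25H2.6 the second peak overlaps the first, and whether they are separate sites was not tested.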

How the data were processed

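The authors deposited peak lists from a pooled alignment, from each biological replicate and, by the irreproducible discovery rate, a final set of 173 peaks. The lists on ce11 were used. In the authors' lists each peak carries its signal together with a −log10 q-value, and per the deposited file notes the pooled and replicate lists also hold background entries. The sources used here do not give the scale of the signal, the aligner or the peak caller, and read depth is unknown. Control libraries were not analysed here.

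Summits, counted from 1, were set against 5′ ends of protein-coding genes in Ensembl release 115 (WBcel235, which is ce11), and sequences come from the RefSeq genome of that build. Gene lists used name patterns, with complex I genes under their current names. The members and lists were chosen with earlier results of these data known. Genes named are those of the final-set members, of the next 10 by signal and of the 5 strongest members with a ribosomal protein gene. Peaks were compared by shares with 95% Clopper-Pearson intervals and medians with order-statistic intervals. The replicate comparison used an exact sign-flip permutation test over these 3 replicates only. With 3 log2 ratios of the same sign its p is 0.25 whatever their size, so it does not measure their spread. Classification and distances were tested on simulated data. Python 3.11.15, numpy 2.4.6, pandas 2.3.3, scipy 1.17.1 and matplotlib 3.10.9 were used.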

Additional observations from a re-analysis of the deposited data

How the results depend on the processing

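The number of members was 372 with a window of 500 bp upstream, 1573 with 2000 bp and 83 at a −log10 q-value of at least 1.3. The median signal moved to 10.7 with 500 bp and to 22.7 at that q-value. The nearer distance was 124, 192 and 231 bp with windows of 500 bp upstream, of 0 bp downstream and of 2000 bp upstream, 191 bp in the final set and 170 bp at that q-value. The farther distance was 296 and 1066 bp with 500 and 2000 bp upstream, 440 bp in the final set and 378 bp at that q-value, since a window limits the distances it can hold. The share between the 5′ ends was 81.8% in the final set and 86.7% at that q-value. The share of members found in all 3 replicates was 2.69% within 50 bp, 12.1% within 200 bp, 20.5% with any shared base and 0.404% among the 1000 strongest peaks of each, and with 1 replicate left out it was 9.69 to 16.4%. The ratio of peak share to base share was 1.53, 1.39 and 1.20 with windows of 500 bp upstream, of 0 bp downstream and of 2000 bp upstream, 2.33 in the final set and 2.11 at that q-value. GC was 38.2% within 50 bp, 36.1% within 250 bp and 45.0% in the final set. The mean log2 ratio over replicates was 0.08 to 0.10 with 1 left out and 0.06 to 0.10 over the other windows and the 1000 strongest peaks, so its direction held in all of these. The share in the final set was 1.34 to 1.88% over the other windows and selections tried.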
